A study of Homo sapiens with 24 samples.

Results

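The MYC and PVT1 locus on chromosome 8 was examined for regions whose chromatin accessibility changed after inhibition of cyclin-dependent kinase 9 (CDK9i). The window ran from 500 kb before the annotated start of MYC to 500 kb after the end of PVT1, which is chr8:128247680-129699347 of hg19, or 1452 kb. Every region in it that had been called increased or decreased in at least 1 comparison was taken, and regions with equal coordinates in several lists were counted once. This gave 21 distinct regions of 26353 listed on the autosomes and X, and of 1257 listed on chromosome 8. The window was set by gene positions, and the locus was chosen with earlier results of these data known.

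MYC encodes a basic helix-loop-helix leucine zipper transcription factor that pairs with MAX, binds E-box sequences and drives genes of ribosome production, metabolism and cell division. Its mRNA and protein are short-lived, so its level follows ongoing transcription closely, and it is a frequently deregulated oncogene of aggressive B-cell lymphoma. PVT1 is a long noncoding RNA (lncRNA) gene that lies downstream of MYC in the same orientation, hosts several microRNAs and holds enhancers that can contact the MYC promoter. CDK9 is the kinase of P-TEFb, which releases paused RNA polymerase II into elongation.

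The measurement was ATAC-seq, in which a transposase cuts and tags accessible DNA. VAL and OCI-LY3, 2 established human diffuse large B-cell lymphoma (DLBCL) cell lines, were exposed to 30 nM AZD4573, a selective CDK9 inhibitor, for 0, 3 or 8 h, with 4 libraries for each of 6 conditions and 24 in all. Of the 4 libraries of a condition, 2 are labelled as standard ATAC-seq with 50000 cells as input and 2 as Fast-ATAC with 5000, whereas the extraction text gives 50000 cells for Fast-ATAC. The 0 h libraries served as controls, which the lists name DMSO, and no other controls are labelled for either time of a line. Both groups are single lines and no condition after removal of the drug was measured by ATAC-seq here.

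What could be examined were 8 lists of coordinates, increased and decreased, for 3 h and 8 h against 0 h in each line. They hold no count, fold change, p-value or value per library. Depth is therefore unknown, the size of a change and the spread between replicates cannot be given, and no test over libraries was possible. "Increased" and "decreased" below mean that the authors' differential test placed a region in that list. "Not listed" means that a region passed no threshold or was not in the merged peak set, and does not show that accessibility was unchanged. A difference between comparisons in what is listed was not tested. Whether the copy number or structure of this locus differs between the 2 lines was not examined.

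At MYC itself the listed changes were all decreases. MYC (ENSG00000136997) spans chr8:128747680-128755197 on the forward strand, 7518 bp, and its canonical transcript has its transcription start site (TSS) at 128748477. Distances below are from this TSS to the midpoint of a region, negative on its upstream side. A promoter was taken as 1000 bp on either side of any of the 12 TSS of MYC transcripts tagged basic in the annotation, from 128747680 to 128749991. The MYC promoter held 1 region, chr8:128746126-128748839, which was decreased in VAL after 8 h and was not listed in VAL after 3 h or in OCI-LY3 at either time. It was 2714 bp wide, with 2351 bp before the canonical TSS and 363 bp from it onwards, all of the latter in exon 1 of MYC (5' UTR). It covered 7 of the 12 MYC TSS. It also covered the promoter of CASC11, a lncRNA gene read from the opposite strand, and 88 bp of its exon 1, so that the decrease cannot be assigned to 1 of the 2 genes.

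A decreased promoter was an uncommon call in each comparison. Of 38690 protein-coding and lncRNA genes, 3.03% had a decreased region at the promoter in VAL after 8 h and 17.2% an increased one. In VAL after 3 h these shares were 0.380% and 6.86%. In OCI-LY3 they were 0.602% decreased and 3.81% increased after 3 h, and 1.14% and 6.06% after 8 h. Among the 20098 protein-coding genes, the decreased shares were 0.323% in VAL after 3 h, 3.39% in VAL after 8 h, 0.697% in OCI-LY3 after 3 h and 1.29% in OCI-LY3 after 8 h.

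The second region at MYC lay at the other end of the gene. This region, chr8:128753764-128755378, was 1615 bp wide with its midpoint at 6.1 kb. It was decreased in VAL after 3 h and in OCI-LY3 after 3 h and 8 h, and was not listed in VAL after 8 h, the 1 comparison in which the promoter was. Of its length, 1434 bp overlapped exon 3 of the canonical transcript, all of it 3' UTR, and 0 bp was coding. The last 181 bp lay beyond the annotated end of the gene. Of the 12 basic MYC transcripts, 11 end before this region begins, the most distal of them at 128753680, 84 bp before its first base. The gap between both MYC regions was 4.9 kb, and no listed region lay in it.

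For scale, the share of the 20098 protein-coding genes with a decreased region within 1000 bp of the gene end was 0.657% in VAL after 3 h, 1.19% in VAL after 8 h, 1.06% in OCI-LY3 after 3 h and 0.906% in OCI-LY3 after 8 h. This share was computed after the region at the end of MYC had been seen. Across the locus, the region at the end of MYC was 1 of 2 that were listed in 3 comparisons, and 0 of the 21 were listed in all 4. Of all 26353 regions, 1422 were listed in 3 comparisons and 779 in 4. Of the 21, 16 were listed in 1 comparison (76.2%, against 70.7% of all regions).

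At the PVT1 promoter the listed call was an increase, in a comparison that did not list the MYC promoter. No comparison listed both promoters, so their directions cannot be set against each other at the same time. PVT1 (ENSG00000249859) spans chr8:128806772-129199347 on the forward strand, 392576 bp, and its canonical transcript starts at 128806787. The region at this promoter, chr8:128806166-128808897, was increased in VAL after 3 h and was not listed in the other 3 comparisons. It was 2732 bp wide, with 621 bp before the canonical TSS and 2111 bp from it onwards. It overlapped 194 bp of exon 1 and 178 bp of exon 2 of the canonical transcript and covered 25 of the 35 basic TSS of the gene. A gene with many TSS has more promoter sequence in which a listed region can fall. Of the 38690 protein-coding and lncRNA genes, 6.86% had an increased region at a promoter in this comparison. The end of MYC and the start of PVT1 lie 51.6 kb apart, and apart from the edges of the region at the end of MYC and of the PVT1 promoter region, 0 listed regions lay in this interval.

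Both promoter regions were among the widest listed. Of all 26353 regions, 99.0% were narrower than that of MYC and 99.1% narrower than that of PVT1, against a range of 345 to 3026 bp and a median of 1309 bp. They also stood out within the locus by their CpG content, with 5.38 CpG per 100 bp at MYC and 4.61 at PVT1. The other 19 regions lay between 0.373 and 2.53 per 100 bp.

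**Figure D1:**
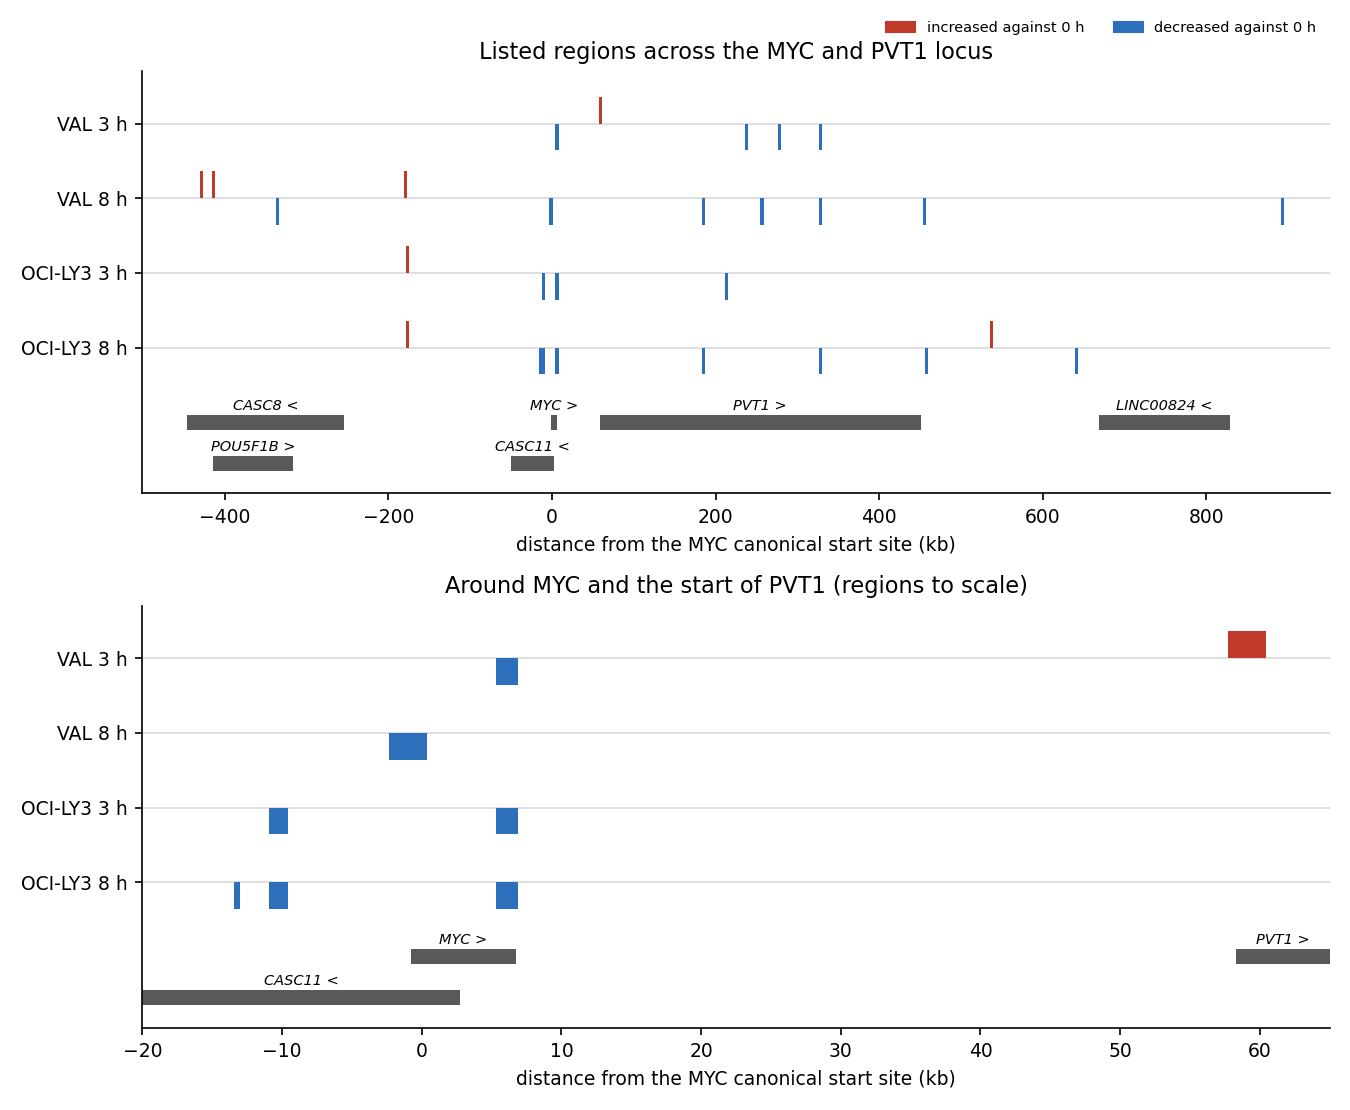
Listed regions of the MYC and PVT1 locus by distance from the MYC canonical TSS (kb), with a row for each comparison with 0 h; red bars above a line are increased regions, blue bars below it decreased ones, and grey bars are genes with their strand. The upper panel shows the whole window, where narrow regions are drawn at the width of the line, and the lower panel shows MYC and the start of PVT1 to scale: the MYC promoter is decreased in VAL after 8 h, the end of MYC in VAL after 3 h and in OCI-LY3 at both times, and the PVT1 promoter is increased in VAL after 3 h.

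Inside PVT1, away from its promoter, 6 regions were listed and all 6 were decreased, 3 in VAL after 3 h, 3 in VAL after 8 h, 1 in OCI-LY3 after 3 h and 2 in OCI-LY3 after 8 h. All 6 lay in introns, outside the exons of every PVT1 transcript tagged basic. They lay between 126.5 and 270.0 kb from the PVT1 TSS, in its middle part, and the first 124 kb after the promoter region held no listed region. The region that recurred most, chr8:129075811-129077678, was decreased in VAL after 3 h and 8 h and in OCI-LY3 after 8 h. It was 1868 bp wide, at 328.3 kb from the MYC TSS, and was the 1 locus region listed at both times in VAL. The region chr8:128932731-128933927, at 184.9 kb, was decreased after 8 h in both lines and was listed in neither after 3 h.

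The other 4 intronic regions of PVT1 were each listed in 1 comparison. The region chr8:128961313-128962588, at 213.5 kb, was decreased in OCI-LY3 after 3 h and overlapped the promoter of LINC02912, a lncRNA gene read from the opposite strand within PVT1. The regions chr8:128985887-128986478, at 237.7 kb, and chr8:129026468-129027392, at 278.5 kb, were decreased in VAL after 3 h. The region chr8:129004592-129006118, at 256.9 kb, was decreased in VAL after 8 h. In VAL the 3 intronic regions after 3 h and the 3 after 8 h thus had 1 region in common. Of the microRNAs that PVT1 hosts, the annotation used here held MIR1205, MIR1207 and MIR1208. These had 0 listed regions at their promoters or in their sequence, and hosted microRNAs absent from this annotation were not examined.

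The 5' flank, from the start of the window to the MYC promoter, held 7 regions and both directions, 4 increased and 3 decreased. The 4 increased regions lay at -176.7 kb or farther from MYC, and 2 of the 3 decreased ones within CASC11, next to MYC. The region at -428.4 kb, chr8:128319413-128320751, was increased in VAL after 8 h and lay in introns of CASC8 and PCAT1, lncRNA genes named for their association with cancer. The region at -414.0 kb, chr8:128334255-128334716, was the narrowest of the locus at 462 bp. It was increased in VAL after 8 h and lay at a promoter of POU5F1B, a retrogene of the pluripotency factor POU5F1, and of PCAT1. A decreased region at -335.4 kb, chr8:128412473-128413659, in VAL after 8 h, overlapped 1016 bp of exon 1 of the lncRNA CCAT2.

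Between -179.5 and -176.3 kb the lines each had an increased region, and these were not the same one. In VAL after 8 h it was chr8:128569008-128570155, at -178.9 kb. In OCI-LY3 after 3 h and 8 h it was chr8:128571339-128572142, at -176.7 kb, 1.2 kb farther on. Both lay outside annotated genes. Nearer to MYC, decreases were listed in OCI-LY3. The region chr8:128737537-128738913, at -10.3 kb, was decreased after 3 h and 8 h, and chr8:128735026-128735508, at -13.2 kb and 2.0 kb from it, after 8 h. Both lay in an intron of CASC11, and VAL had no call at either.

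The 3' flank held 5 regions, of which 4 were decreased and 1 increased, and all of them were listed after 8 h. Just past the end of PVT1, which was 3.7 kb away, chr8:129203070-129204330 was decreased in VAL and chr8:129205967-129206627, 1.6 kb farther on, in OCI-LY3. As between -179.5 and -176.3 kb, the lines moved in the same direction at neighbouring but separate regions. The increased region was chr8:129285338-129286571, at 537.5 kb, in OCI-LY3. The decreased region chr8:129388935-129389952, at 641.0 kb, was listed in OCI-LY3 and lay in an intron of the lncRNA gene ENSG00000286034. The last, chr8:129641013-129642698, at 893.4 kb, was decreased in VAL. The longest stretch with no listed region, 251 kb, lay between these 2, and LINC00824 within it had 0 listed regions.

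**Figure D2:**
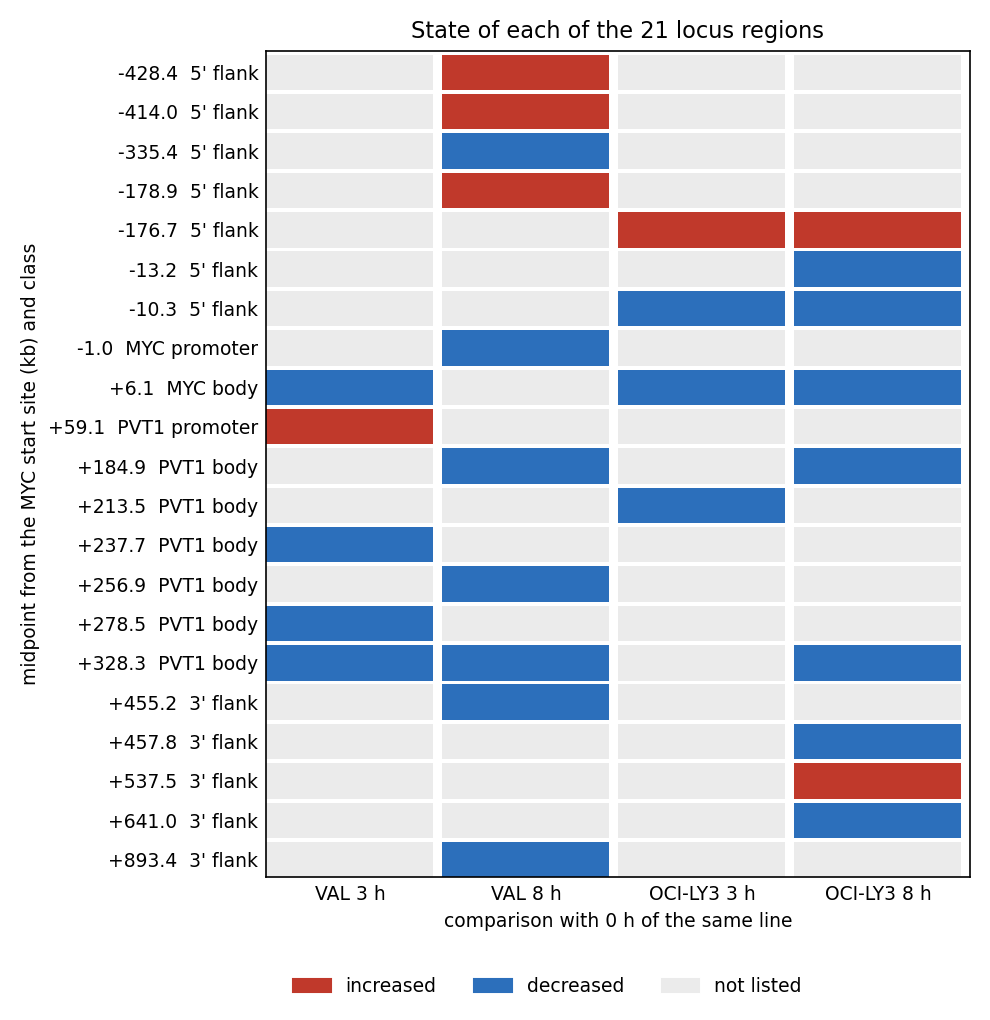
State of each of the 21 regions (rows, by midpoint in kb from the MYC TSS and by class) in the 4 comparisons with 0 h (columns); red is increased, blue decreased and grey not listed. No row holds both colours, the 6 PVT1 body rows are blue wherever they are coloured, and 16 of the 21 rows are coloured in 1 column. Of all 26353 regions, 194 were called in both directions.

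Decreases outnumbered increases at the locus in every comparison. In VAL 1 region was increased and 4 were decreased after 3 h, and 3 and 7 after 8 h. In OCI-LY3 the counts were 1 increased and 3 decreased, then 2 and 7. Counted once, 15 of the 21 regions were decreased, 6 were increased and 0 were called in opposite directions, so that 71.4% were decreased. Opposite calls were rare in general, at 194 of all 26353 regions. Of the 21, 19.0% were decreased and 4.76% increased in VAL after 3 h, against 6.77% and 13.4% of all 26353 regions. In VAL after 8 h, 33.3% were decreased and 14.3% increased, against 35.1% and 42.2%. In OCI-LY3 after 3 h, 14.3% were decreased and 4.76% increased, against 6.36% and 7.02%, and after 8 h 33.3% and 9.52%, against 13.1% and 16.5%.

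Counted once, the regions of the locus and of its chromosome had similar shares of decreases. On chromosome 8, 68.3% of 1257 regions were decreased in each comparison that listed them, while over the autosomes and X this was 48.1%. By comparison, decreased regions made up 80.0% of the 5 locus regions in VAL after 3 h, 47.9% of 194 regions on chromosome 8 and 33.5% of 5328 in all. In VAL after 8 h the shares were 70.0% of 10, 70.5% of 897 and 45.4% of 20377. In OCI-LY3 they were 75.0% of 4, 62.5% of 192 and 47.5% of 3528 after 3 h, and 77.8% of 9, 64.2% of 383 and 44.2% of 7817 after 8 h. With 4 to 10 locus regions per comparison, single calls move these shares. Regions away from promoters were more often decreased in general. Of these, 75.0% of 16 were decreased at the locus, 72.4% of 1064 on chromosome 8 and 58.5% of 19257 in all. Nothing particular to the locus can be read from its direction.

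**Figure D3:**
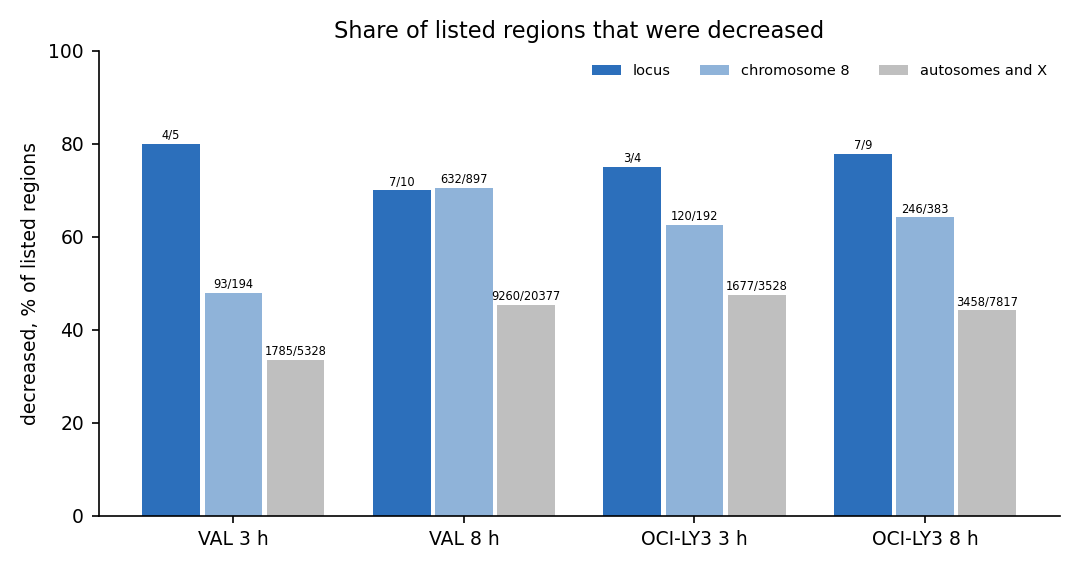
Decreased regions as a percentage of all regions listed in each comparison, for the MYC and PVT1 locus (dark blue), chromosome 8 (light blue) and the autosomes and X (grey), with the counts above the bars. The locus bars stand above the grey bars in all 4 comparisons, and in VAL after 8 h the locus (70.0%) and chromosome 8 (70.5%) are level.

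The locus held 14.5 distinct regions per Mb, compared with 8.59 on chromosome 8 and 8.68 over the autosomes and X. Its regions had a median width of 1234 bp and a median GC content of 42.3%, with a range of 37.5% to 55.1%, against 47.5% in all. The 6 increased regions had a median of 42.8%, where increased regions in all had 56.2%, and the 15 decreased ones had 42.3%, where decreased regions in all had 41.4%. A promoter of a protein-coding or lncRNA gene was overlapped by 2 of the 6 increased regions (33.3%, against 41.9% in all) and by 3 of the 15 decreased ones (20.0%, against 11.1%). Of 22 annotated genes in the window, 2 of them protein-coding and 12 lncRNA genes, 7 had a listed region at a promoter. These were PCAT1, POU5F1B, CCAT2, CASC11, MYC, PVT1 and LINC02912. They rest on 5 regions, since PCAT1 and POU5F1B shared a region, as did CASC11 and MYC. The share of all genes with a promoter call in any comparison was not computed, so this count has no scale.

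Few of the locus calls in VAL after 3 h were listed again after 8 h. Of the 5 VAL regions after 3 h, 1 was also listed after 8 h (20.0%, or 10.0% of the 10 regions after 8 h), whereas 84.0% of the 5328 VAL regions after 3 h in all and 76.8% of the 194 on chromosome 8 were listed after 8 h in the same direction. The 4 that were listed after 3 h and not after 8 h were the end of MYC, the PVT1 promoter and 2 PVT1 intronic regions. With 5 regions, single calls move this share. Of all VAL regions after 3 h, 66.5% were increased, against 20.0% of the 5, and sharing was not computed by direction. In OCI-LY3, 3 of the 4 regions after 3 h were also listed after 8 h (75.0%, or 33.3% of 9), against 60.2% of 3528 in all and 50.5% of 192 on chromosome 8. The regions that stayed listed in OCI-LY3 were those at -176.7 kb, at -10.3 kb and at the end of MYC. Each line had a single set of 0 h libraries for both times, so these shares cannot be taken as independent repeats.

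Between the lines, whose 0 h libraries were separate, 3 of the 21 regions were listed in both (14.3%, against 15.5% in all and 13.0% on chromosome 8). They were the end of MYC and the PVT1 intronic regions at 184.9 and 328.3 kb, and all 3 were decreased wherever they were listed. At 3 h, 1 of the 4 OCI-LY3 regions was shared with VAL (25.0%, or 20.0% of the 5 in VAL), the end of MYC. At 8 h, 2 of 9 were shared (22.2%, or 20.0% of 10), both of them in PVT1. In all, 28.5% of OCI-LY3 regions after 3 h and 43.8% after 8 h were listed in VAL in the same direction at the same time, and on chromosome 8 18.8% and 34.2%.

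Sequence matches were counted on both strands in the central 200 bp of each region and, as an alternative, over whole regions. The E-box CACGTG, which MYC and MAX bind, was in 0 of the 21 central windows (3.63% in all) and in 5 whole regions (23.8%, against 19.0%). One of the 5 was the PVT1 promoter region, and the MYC promoter region had 0. The AP-1 site TGANTCA, bound by FOS and JUN proteins, was in 1 central window, that of the increased region at -428.4 kb (4.76%, against 5.93%), and in 8 whole regions (38.1%, against 30.7%), which included the MYC promoter and the end of MYC. The cAMP response element TGACGTCA was in the PVT1 promoter region alone, outside the central window. Its share over whole regions in all was 1.68%.

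Motifs of lymphoid factors were counted in the same way. The octamer ATGCAAAT, bound by OCT1 and OCT2, was in 4 whole regions (19.0%, against 12.2%) and 0 central windows, and the decreased PVT1 region at 184.9 kb held 2 copies. The PU.1 and SpiB core GAGGAAGT was in 0 regions, where 12.3% in all held it. The consensus of interferon regulatory factors (IRF), with at most 1 mismatch, was in 3 whole regions (14.3%, against 15.5%), each decreased. These were the PVT1 regions at 184.9 and 256.9 kb and the region at 641.0 kb, which held 2 matches in its central window. The CTCF consensus, with at most 1 mismatch, was in 1 whole region, that of the MYC promoter (4.76%, against 13.7%), and in 0 central windows (4.01% in all). The NFkB consensus was in 0 regions (2.51% in all). A match shows that these letters are present and is neither a bound site nor a cause, and the absence of one says nothing about the factor.

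The MYC network was examined in 4 lists with 60 genes in total, MYC included. Where a promoter of these genes was listed, it was in most cases increased, as were listed promoters of protein-coding genes in general. In VAL 14 of the 60 promoters were increased and 0 decreased after 3 h, and 32 were increased and 2 decreased after 8 h. In OCI-LY3 8 were increased after 3 h and 10 after 8 h, with 0 decreased at either time. Among the 20098 protein-coding genes, increased promoters made up 10.3% in VAL after 3 h, 25.2% in VAL after 8 h, 5.94% in OCI-LY3 after 3 h and 9.33% in OCI-LY3 after 8 h. The shares cover all protein-coding genes, whether or not their promoters are accessible. The lists were set with earlier results of these data known, so the counts are a description.

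Of the 13 genes for MYC and MAX partners, the 2 decreased after 8 h in VAL were MYC and MYCN, its neuronal paralogue. They were also the 2 decreased of all 60 genes, where 3.39% of protein-coding genes had a decreased promoter in this comparison. In the same comparison 5 were increased, MGA, MLX, MXD3, MLXIP and MLXIPL, which encode other members of the MAX and MLX dimer network. MLX was also increased in VAL after 3 h and in OCI-LY3 after 8 h. MAX itself was not listed in any comparison. Of the 15 cofactor and turnover genes, 4 were increased in VAL after 3 h, 9 in VAL after 8 h, and 1 at each time in OCI-LY3. That 1 was RUVBL2, an ATPase of the TIP60 complex, whose promoter was increased in all 4 comparisons, as were those of 2.85% of the 20098 protein-coding genes.

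The 26 MYC target genes had 9 increased promoters in VAL after 3 h, 15 in VAL after 8 h, 6 in OCI-LY3 after 3 h and 8 in OCI-LY3 after 8 h, and 0 decreased ones. Promoters of 5 of the 26 targets were increased in all 4 comparisons, against the same 2.85% of protein-coding genes, a share that was computed after these members had been seen. These were NCL (nucleolin) and NOP56, which act in ribosome production, SRM (spermidine synthase), SHMT2, a mitochondrial enzyme of serine metabolism, and TFRC, the transferrin receptor. The 2.85% covers all protein-coding genes, and a share among genes with an accessible promoter could not be given. Whether the targets differ from other genes with accessible promoters was not tested. Of 6 regulators of MYC transcription, CTCF, YY1 and CNBP were increased in VAL after 8 h and CNBP in OCI-LY3 after 3 h. None of the 60 genes was called in opposite directions in the 2 lines. Such calls were rare in general. Of all OCI-LY3 regions, 14 of 3528 after 3 h and 105 of 7817 after 8 h had the opposite call in VAL at the same time.

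**Figure D4:**
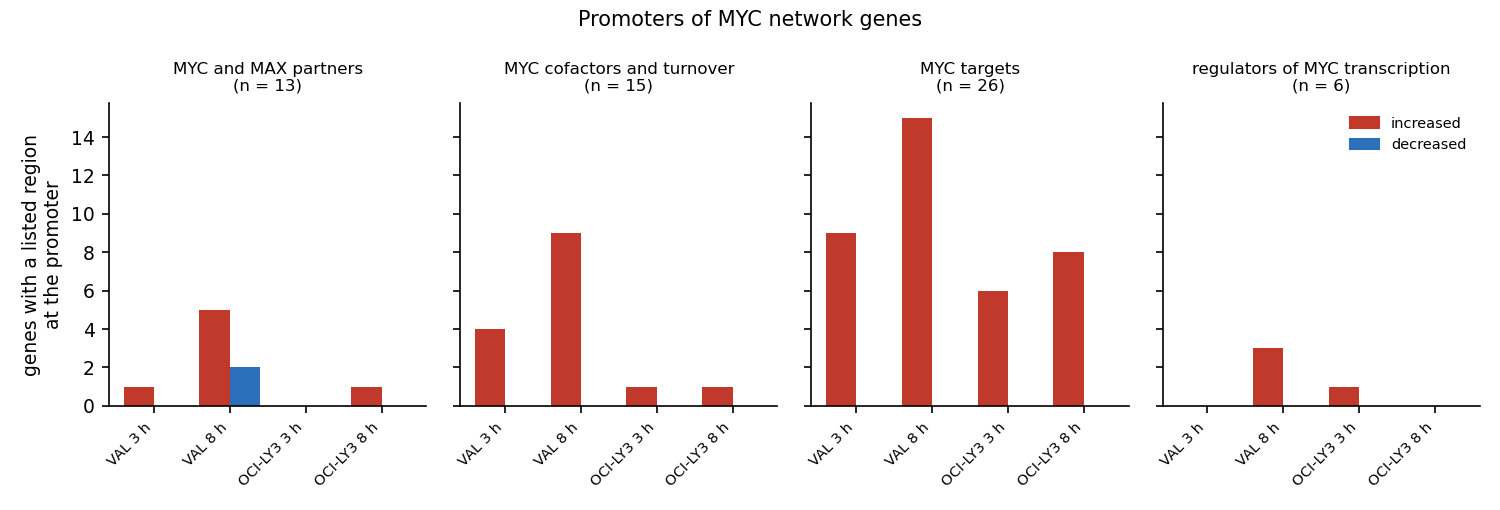
Number of genes with an increased (red) or decreased (blue) region at the promoter in each comparison, for 4 lists of MYC network genes with the number of genes in each list given as n. The decreased bar of 2 genes, MYC and MYCN, in VAL after 8 h is the 1 blue bar, and the tallest red bar is 15 of 26 MYC targets in VAL after 8 h.

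The neighbourhood of MYC was set beside those of protein-coding genes on other chromosomes by counting increased and decreased regions within 100 kb of each gene start. MYC had 1 increased and 1 decreased region in VAL after 3 h, 1 decreased in VAL after 8 h, 2 decreased in OCI-LY3 after 3 h and 3 decreased in OCI-LY3 after 8 h. Of 19389 genes compared, 7 came closest, with a summed difference of 2 over the 8 counts. The first 5 in alphabetical order were ENSG00000283782 on chromosome 5, FBXW8 and HRK on chromosome 12, LDHA on chromosome 11 and MTURN on chromosome 7. LDHA encodes a lactate dehydrogenase subunit, HRK a BH3-only protein and FBXW8 a subunit of a ubiquitin ligase. FBXW8 and HRK had equal counts and lie near each other, with 0 regions in VAL after 3 h, 1 decreased after 8 h, and 2 and 3 decreased in OCI-LY3. LDHA, MTURN and ENSG00000283782 had 1 decreased region at each time in VAL and 2 at each time in OCI-LY3.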

How the data were processed

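The deposited files are 8 lists of region coordinates in bp, which the authors made from ATAC-seq; 24 libraries are labelled, and which of them entered each comparison is not stated. The authors used Bowtie2 for alignment to hg19, discarded mitochondrial, ambiguous and duplicate reads, called peaks per library with MACS2 and merged these with bedtools. The authors compared reads in the merged peaks by DESeq2. Versions for the ATAC-seq processing are not given in the sources used here, nor whether reads were shifted for the transposase or the library protocol entered the model. The legend and the methods give the adjusted p limit differently. There were 0 columns of per-sample values, so counting error and replicate error could not be computed.

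Starts were converted to 1-based positions. Regions on autosomes and X were annotated with GENCODE 44 lifted to GRCh37 using Python 3.11.15, numpy 2.4.6 and matplotlib 3.10.9; 0 regions lay past a chromosome end. A region went to the first class it overlapped by at least 1 bp, in the order MYC promoter, MYC body, PVT1 promoter, PVT1 body, between the genes, flanks. Comparisons are counts without a test, beside the same counts for chromosome 8 and for all regions. The scripts were tested on simulated data. The locus, motifs and gene lists were chosen with earlier results of these data known. Genes were named if they lie in the window with a listed region at the promoter or in the gene, if they were among the 5 protein-coding genes elsewhere with counts nearest to those of MYC, or if network members had a promoter call in all 4 comparisons; other network genes, and genes with 0 listed regions, were named after their values were seen. No sequence of chromosome 8 is shown. A further planned item is left out.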

Additional observations from a re-analysis of the deposited data

How the results depend on the processing

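Counts were repeated with other settings, 240 values for 100 counts, of which 223 stayed within 1.5 times and 17 did not. Many of the 223 were empty counts that stayed empty, such as all those between MYC and PVT1. An empty count gives no ratio, so the total of 223 does not measure how stable the results are. With 2000 kb on each side in place of 500 kb, decreased regions numbered 8 in VAL after 3 h, 20 in VAL after 8 h, 8 in OCI-LY3 after 3 h and 19 in OCI-LY3 after 8 h, and increased ones 2 in OCI-LY3 after 3 h. With 1000 kb, OCI-LY3 had 11 decreased regions after 8 h, and with 250 kb VAL had 1 increased region after 8 h. A wider or narrower window by construction takes in more or fewer regions. With promoters of 5000 bp on either side, the end of MYC came within reach of its TSS, which gave 1 decreased region at the MYC promoter in VAL after 3 h, in OCI-LY3 after 3 h and in OCI-LY3 after 8 h. PVT1 then had 1 decreased region in VAL after 8 h, near an internal TSS. Whole regions in place of 200 bp gave 5 regions with an E-box, 8 with AP-1, 1 with the cAMP response element, 4 with the octamer, 1 with CTCF and 3 with IRF, since more sequence was searched. Using the midpoint, merging regions within 10 kb, promoters of 500 or 2500 bp, canonical TSS or spans, or other overlap rules moved no count by more than 1.5 times. Among these too, many counts were empty in the main and the other setting alike.

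No paired analysis was possible because the files give coordinates without values for single libraries. Leaving out a replicate, a stricter threshold and a comparison of the 2 library protocols were not run for want of such values. A change below the authors' threshold cannot be told apart from no change. With 4 to 10 locus regions per comparison, shares move with single calls.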

Other observations

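Beyond the window, out to 2000 kb from each gene, nearly all listed regions were decreased. On chromosome 8 the share was lower, 68.3% of 1257 distinct regions (48.1% over the autosomes and X). This difference was not tested. Before the window 10 distinct regions were listed, 1 increased and 9 decreased. After it 16 were listed and all 16 were decreased. One of these, chr8:130849402-130850193, 792 bp wide and 2101 kb from the MYC TSS, was decreased in all 4 comparisons and lay in the gene ENSG00000254317. These values were looked at after the alternative windows had been counted.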
